A study of Mus musculus with 12 samples.

Results

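The tolloid, procollagen and proprotein processing enzymes are 10 genes whose products cut, or help to cut, the precursors of secreted proteins: Bmp1, Tll1, Tll2, Pcolce, Pcolce2, Adamts2, Adamts14, Pcsk5, Pcsk6 and Furin. They were chosen by name, for their function, among the 25230 genes listed in the counts, with earlier results of these data known. Their mRNA was measured by RNA-seq in 12 libraries of primary mouse mesangial cells (MMC), the contractile cells that hold the glomerular capillaries of the kidney together. The cells came from wild-type (WT) mice or from the lncMGC knockout (KO) line that the study names KO5, and the samples are labelled lncMGC_KO. For each genotype, untreated control cells were serum-depleted (SD, serum depletion), and other cells were given TGF-β, the main profibrotic cytokine of the kidney, at 10 ng/ml for 24 h. The sources used here do not say whether the treated cells were serum-depleted too. The groups are named WT-SD, WT-TGF, KO-SD and, for the treated knockout, KO-TGF, with 3 libraries in each.

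lncMGC is the long non-coding RNA that hosts a large cluster of microRNAs. In KO5, CRISPR-Cas9 editing in C57BL/6J embryos removed a short stretch next to its transcription start, and one mutant line was sequenced, so that effects of the deletion and of the line cannot be told apart. The MMC were grown from pooled glomeruli, and the number of mice behind each library is not given in the sources used here. The labels do not say whether the 3 libraries of a group came from separate cultures, so the p-values measure the spread between libraries, which may be technical. The counts have no entry for lncMGC. Mirg, a gene of the same locus, had 47 to 59 counts in WT-SD, 73 to 80 in WT-TGF, 72 to 89 in KO-SD and 68 to 87 in KO-TGF, so that every KO-SD library was above every WT-SD library and KO-TGF overlapped WT-TGF. Its counted exons are not known to cover the deletion, so Mirg cannot settle the labels. It was not lower in KO and does not bear them out. No other gene was used to check the label of KO. Genotypes are given as labelled.

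Fibrillar procollagens leave the cell with a propeptide at each end. Tolloid proteinases cut off the C-terminal propeptide, the step that lets the collagen assemble into fibrils, and also act on the lysyl oxidase precursor, small proteoglycans and the BMP antagonist chordin, while the procollagen C-proteinase enhancers speed up the cut and the ADAMTS N-proteinases remove the propeptide at the other end. Proprotein convertases act earlier, in the secretory pathway and at the cell surface, where they cut after pairs or clusters of basic residues and activate TGF-β, many growth factors, matrix metalloproteinases and the tolloid and ADAMTS enzymes themselves.

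Libraries held 19898050 to 22827706 counts on genes. Expression is given as CPM, the count scaled to the size of the library, with sizes adjusted by TMM, a normalization under which most genes are taken not to change, and levels of different genes are compared only as RPKM, the same value per kilobase of exon. A gene was called higher or lower at a false discovery rate (FDR) <5% in edgeR's quasi-likelihood test, which was run on 11478 genes with RPKM >1 in at least 1 library, and fold changes are given on the log2 scale with their standard error (SE). The label of the cells was checked against marker genes. The 8 mesangial and smooth muscle markers summed to between 2596 and 11610 CPM in a library, mostly from Acta2 and Tagln, while Itga8, a mesangial integrin, had group means of at most 3.05 CPM. The podocyte gene Nphs1, the endothelial genes Cdh5, Emcn and Tie1 and the tubular genes Slc34a1, Umod and Epcam were at or under 3 counts in every library.

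Of the 10 genes, 9 were tested. Tll2, tolloid-like 2, had 2, 2 and 0 counts in WT-SD, 1, 0 and 1 in WT-TGF and 0 in all 6 KO libraries. These are under the floor of 3 counts, 0.131 to 0.151 CPM in these libraries, so no fold change is given, and Tll2 was not called in any comparison when all genes with a count were fitted (lowest adjusted p = 0.130, edgeR). The other genes spanned a wide range. In WT-SD, Pcolce had the highest level, 70.9 ± 2.10 RPKM (mean ± SD, n = 3), followed by Bmp1 with 31.2 ± 0.643, Furin with 12.6 ± 0.306 and Pcsk6 with 8.43 ± 0.549 RPKM. Adamts2 and Pcsk5 came next, with 3.12 ± 0.205 and 3.02 ± 0.106 RPKM, and their libraries overlapped. Tll1 had 2.39 ± 0.0767, Adamts14 2.13 ± 0.106 and Pcolce2 0.507 ± 0.150 RPKM. This order changed with both factors. With TGF-β, Bmp1 came first and Pcolce second in both genotypes. In KO-SD, Tll1 came after Pcolce and Bmp1 with 16.7 RPKM (15.9 to 17.8), above Furin with 12.7 ± 0.328, while Pcsk5 was last with 0.418 ± 0.0285 RPKM and overlapped Pcolce2 with 0.510 ± 0.124. In KO-TGF, the libraries of Adamts14 and Pcsk5 overlapped, with 2.25 ± 0.274 and 2.14 ± 0.131 RPKM, and so did those of Pcsk6, Pcolce2 and Adamts2 when each was set beside the next in order, with 1.58, 1.52 and 1.43 RPKM.

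**Figure D1:**
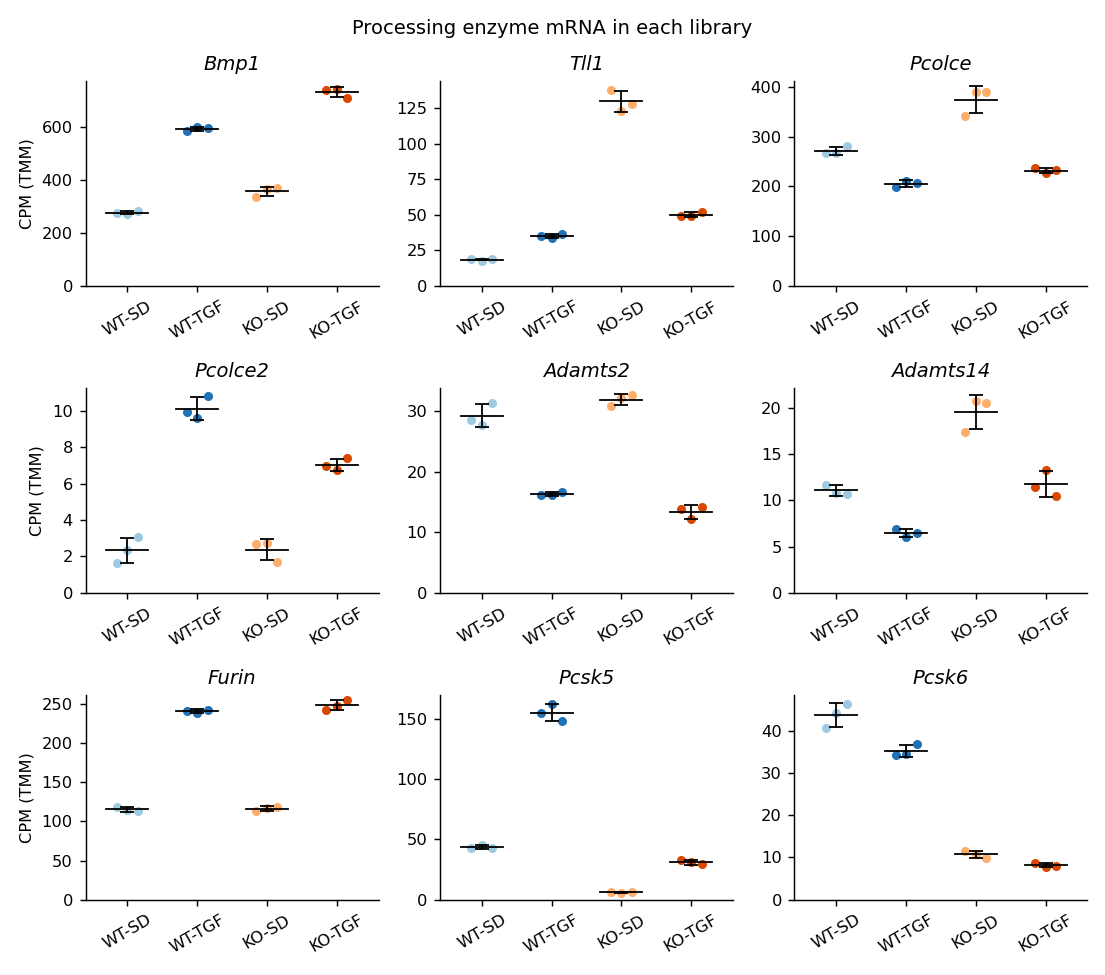
CPM (TMM) of the 9 tested genes in each library of the 4 groups, with each panel on its own linear axis from 0, points for libraries, and lines and bars for the mean ± SD (n = 3). Tll1 is highest in KO-SD, Pcsk5 and Pcsk6 are lower in all KO libraries than in all WT libraries of the same treatment, and Bmp1 and Furin are higher in every TGF-β library than in every SD library.

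The first question was how the enzymes responded to TGF-β in WT MMC. All 9 tested genes were called, 5 higher and 4 lower. The background is high, since 72.6% of all genes tested were called, 39.3% higher and 33.4% lower, so a call alone is not a result about these enzymes. With library sizes alone in place of TMM, 30.4% of the calls over all genes were higher instead of 54.1%, and the median of all genes moved by -0.19 on the log2 scale, but the calls of the 9 enzymes and their directions stayed as they were. By size, with TMM, 4 of 9 were higher by more than 2-fold, against 4.42% of the genes tested, and 0 were lower by more than 2-fold, against 5.33%. Bmp1 (log2 fold change 1.10) and Furin (1.06) passed 2-fold, and Adamts2 (-0.83) fell short of it, by less than the shift of -0.19. These 2-fold counts therefore depend on the scaling. The rises also include Pcolce2, which passed the RPKM filter only through its TGF-β libraries. The median log2 fold change of the enzymes was 0.92, and that of all genes tested 0.03.

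In KO MMC, TGF-β raised 4 of the 9 genes and lowered 5, where 74.2% of all genes tested were called, 36.4% higher and 37.8% lower. Library sizes alone turned the share of higher calls over all genes from 49.0% to 25.5% and moved their median by -0.22, and again changed no call of the 9. With TMM, the 4 genes that rose did so by more than 2-fold, against 4.51% of the genes tested, and 2 fell by more than 2-fold, against 8.82%. Bmp1 (log2 fold change 1.03) and Furin (1.09) passed 2-fold by less than the shift of -0.22, so the count of such rises depends on the scaling. Pcolce2, which passed the RPKM filter only through its TGF-β libraries, is again among them. The median of the enzymes was -0.39 and that of all genes tested -0.01. Bmp1, Pcolce2, Pcsk5 and Furin rose in both genotypes, as did 3704 genes or 32.3% of those tested, and Pcolce, Adamts2, Adamts14 and Pcsk6 fell in both, as did 3405 genes or 29.7%. Tll1 rose in WT and fell in KO, a pattern called in 128 genes, 1.12% of those tested.

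**Figure D2:**
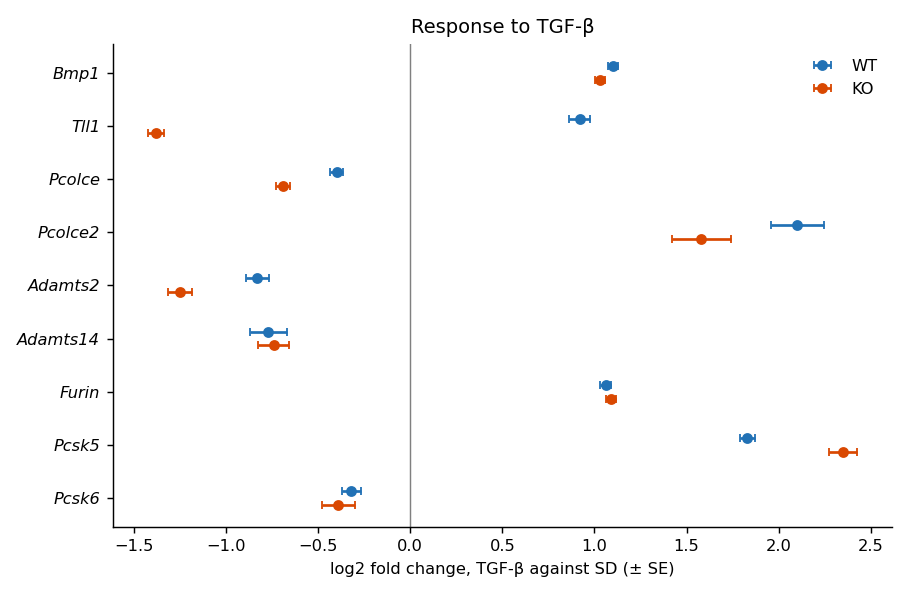
Log2 fold change with TGF-β (horizontal axis, ± SE) of each gene in WT and KO. The 2 points of a gene lie on the same side of 0 for every gene but Tll1, at 0.92 in WT and -1.38 in KO.

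The next question was how the genotypes differed under the same treatment. In SD, 5 of the 9 genes were called higher in KO and 2 lower, where 57.1% of all genes tested were called, 35.6% higher and 21.5% lower. The share of higher calls over all genes was 62.3%, and 36.8% with library sizes alone, which moved the median of all genes by -0.11. Only Tll1 was higher by more than 2-fold among the 9, against 3.35% of the genes tested, and Pcsk5 and Pcsk6 were lower by more than 2-fold, against 2.98%. The median of the enzymes was 0.13, beside 0.05 over all genes. With TGF-β, 4 were called higher and 4 lower, where 55.1% of the genes tested were called, 28.9% higher and 26.3% lower. Here 52.4% of the calls over all genes were higher, and 23.3% with library sizes alone, which moved the median by -0.14. None of the 9 was higher by more than 2-fold, where 1.47% of the genes tested were, and Pcsk5 and Pcsk6 were lower by more than 2-fold, where 4.51% were. The medians were 0.05 and 0.01.

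**Figure D3:**
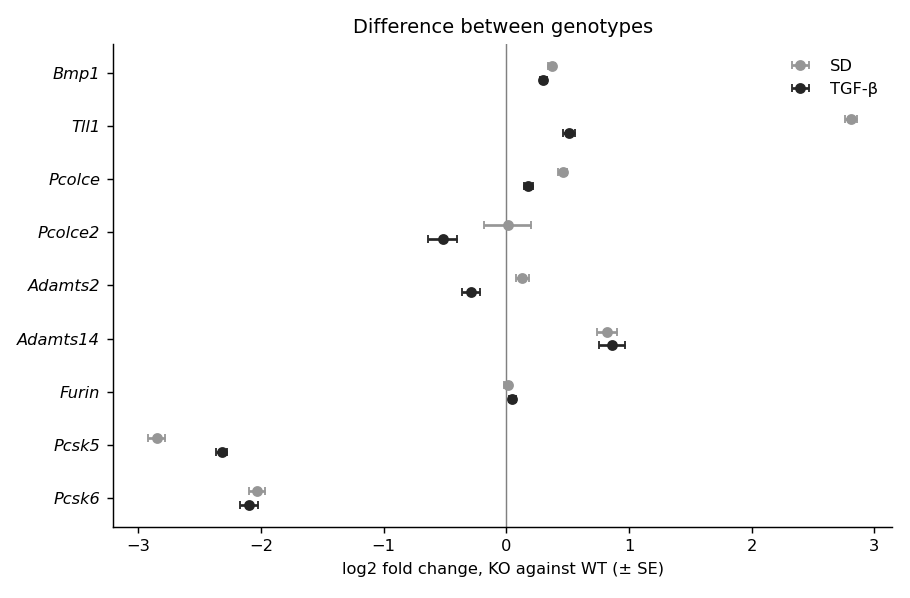
Log2 fold change between KO and WT (horizontal axis, ± SE) of each gene in SD and with TGF-β. Pcsk5 and Pcsk6 lie below -2 in both treatments and Tll1 lies at 2.81 in SD and 0.51 with TGF-β, while Furin lies at 0.01 and 0.05 and Pcolce2 at 0.01 in SD, values whose sign turned with library sizes alone.

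The interaction, the log2 fold change with TGF-β in KO less the one in WT, tested whether the response itself differed. It was called in 4 of the 9 genes, 1 higher (Pcsk5) and 3 lower (Tll1, Pcolce and Adamts2), where 26.4% of the genes tested were called, 7.69% higher and 18.7% lower. DESeq2 in place of edgeR moved the share of higher calls over all genes from 29.2% to 43.2%. Tll1 passed 2-fold in the lower direction, as did 2.54% of all genes, and 0 of the 9 in the higher direction, as did 0.331%. The median of the enzymes was -0.08, and that of all genes -0.05.

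Among the tolloid proteinases, Bmp1, the main procollagen C-proteinase (gene ID 12153, mm10 chromosome 14, 70474555 to 70520716, minus strand), had the highest level. It had 275, 272 and 283 CPM in WT-SD and 586, 599.5 and 597 in WT-TGF. In KO-SD it had 338, 366 and 371 CPM, and in KO-TGF 739, 746 and 710. The 4 groups did not overlap, and each step from WT to KO and from SD to TGF-β was upward. TGF-β raised Bmp1 2.14-fold in WT (log2 fold change 1.10, SE 0.0290, edgeR FDR = 1.07e-24) and 2.04-fold in KO (1.03, SE 0.0287, FDR = 3.87e-24). An increase as large was called in 435 genes in WT, or 3.79% of those tested, Bmp1 included. In KO it was 1.29-fold higher than in WT in SD (log2 fold change 0.37, SE 0.0293, edgeR FDR = 2.43e-12) and 1.23-fold higher with TGF-β (0.30, SE 0.0280, FDR = 1.19e-10). The responses to TGF-β were not called different, with an interaction of -0.07 (95% interval -0.15 to 0.01, edgeR FDR = 0.210). Without KO-SD replicate 1 it was -0.11 (FDR = 0.00752).

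Tll1, tolloid-like 1, a C-proteinase related to Bmp1 and needed for the formation of the heart septum (gene ID 21892, chromosome 8, 64013098 to 64206008, minus strand), showed the largest increase from WT to KO in SD among the 9 genes. It had 19.0, 17.9 and 18.7 CPM in WT-SD and 35.2, 33.7 and 36.6 in WT-TGF. KO-SD libraries had 138, 123 and 128 CPM, and in KO-TGF 49.0, 48.9 and 52.0. All KO-SD libraries stood far above the other 9, and every KO-TGF library still lay above every WT library. In SD, Tll1 was 7.01-fold higher in KO (log2 fold change 2.81, SE 0.0483, edgeR FDR = 7.65e-29). An increase as large was called in 16 genes, 0.139% of those tested, Tll1 included. With TGF-β the difference was 1.42-fold (0.51, SE 0.0501, FDR = 3.75e-10).

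TGF-β thus moved Tll1 in opposite directions. It rose 1.90-fold in WT (log2 fold change 0.92, SE 0.0573, edgeR FDR = 4.06e-15) and was 2.60-fold lower with TGF-β in KO (-1.38, SE 0.0426, FDR = 5.97e-23). The interaction was -2.30 (SE 0.0714, FDR = 6.18e-21), and 22 genes, 0.192% of those tested, were called with a decrease as large, Tll1 included. Measured per length, Tll1 made up 7.10% ± 0.192 of the tolloid transcripts (Bmp1, Tll1 and Tll2) in WT-SD, 6.34% ± 0.268 in WT-TGF, 29.3% ± 2.23 in KO-SD and 7.25% ± 0.410 in KO-TGF (SD, n = 3). The share lay between 27.8% and 31.9% in the KO-SD libraries and was at most 7.72% in the others. The summed tolloid level was 33.6 ± 0.672 RPKM in WT-SD, 71.5 ± 0.788 in WT-TGF, 57.1 ± 1.14 in KO-SD and 88.9 ± 1.91 in KO-TGF, so that Bmp1 remained the larger part in every library.

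**Figure D4:**
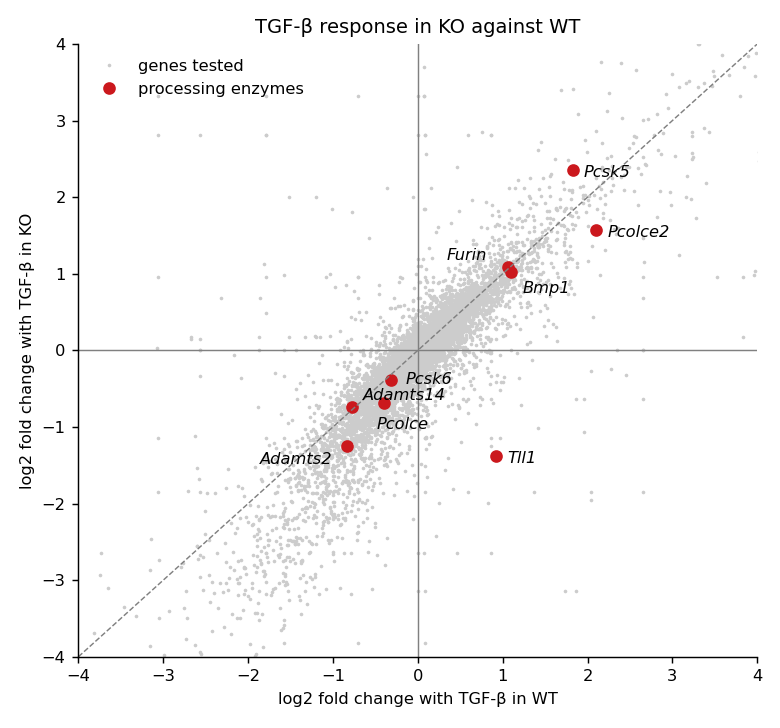
Log2 fold change with TGF-β in KO (vertical axis) against that in WT (horizontal axis) for the genes tested (grey) and the 9 processing enzymes (red), with the line of equal change dashed. Tll1 lies alone among the enzymes below 0 on the vertical and above 0 on the horizontal axis, and 65 genes with a change past 4 on either axis are not drawn.

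The enhancers Pcolce and Pcolce2 code for PCPE-1 and PCPE-2, secreted proteins without proteinase activity that bind the procollagen propeptide. Pcolce (gene ID 18542, chromosome 5, 137605105 to 137611522, minus strand) had 267, 266 and 280.3 CPM in WT-SD and 198, 211 and 207 in WT-TGF. KO-SD libraries had 342, 389 and 390.1 CPM, and in KO-TGF 237, 226 and 232. SD libraries were above TGF-β libraries in each genotype, without overlap, and KO above WT in each treatment. TGF-β lowered Pcolce in WT by a log2 fold change of -0.40 (SE 0.0372, edgeR FDR = 4.54e-11) and in KO by one of -0.69 (SE 0.0368, FDR = 7.08e-17). The decrease was larger in KO, with an interaction of -0.29 (SE 0.0523, FDR = 7.70e-05). In KO it was 1.38-fold higher in SD (log2 fold change 0.46, SE 0.0360, edgeR FDR = 1.88e-12) and 1.13-fold higher with TGF-β (0.18, SE 0.0379, FDR = 2.24e-04). The latter call was lost with library sizes alone, at 0.04 (FDR = 0.354). In GENCODE vM21, exons of Pcolce share 112 bp with Fbxo24 on the same strand. Whether the RefSeq genes used for the counts overlap there was not checked.

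Because Bmp1 rose and Pcolce fell, the ratio of their RPKM values changed. It was 2.27 ± 0.0220 in WT-SD and 2.42 ± 0.0648 in KO-SD, and 0.801 ± 0.0159 in WT-TGF and 0.735 ± 0.0287 in KO-TGF (SD, n = 3). In all 6 SD libraries Pcolce had the higher level, and in all 6 TGF-β libraries Bmp1 had. Which gene was higher rests on the exon lengths used, 8870 bp for Bmp1 and 3823 bp for Pcolce, and other lengths were not tried.

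Pcolce2 (gene ID 76477, chromosome 9, 95637628 to 95695551, plus strand) was much lower and rose. It had 1.66, 2.34 and 3.04 CPM in WT-SD and 9.91, 9.59 and 10.8 in WT-TGF. In KO-SD it had 2.67, 2.71 and 1.70 CPM, and in KO-TGF 6.94, 6.75 and 7.40. Both SD groups rested on 37 to 68 counts a library and overlapped, while the TGF-β groups lay above them and apart from each other. The increase was 4.30-fold in WT (log2 fold change 2.10, SE 0.144, edgeR FDR = 4.14e-14) and 2.98-fold in KO (1.58, SE 0.160, FDR = 3.18e-10). It is the largest fold change with TGF-β among the 9 genes in WT, but Pcolce2 passed the RPKM filter only through its TGF-β libraries. In SD it reached at most 0.658 RPKM in WT and 0.586 in KO, so its rise is not independent of the filter. The genotypes did not differ by the test in SD, with a log2 fold change of 0.01 (95% interval -0.38 to 0.39, edgeR FDR = 0.984), whose sign turned with library sizes alone and DESeq2. With TGF-β, Pcolce2 was 1.44-fold lower in KO (-0.52, SE 0.120, FDR = 4.51e-04). An interaction of -0.53 (95% interval -0.98 to -0.08) was not called (FDR = 0.0929). Without single libraries it ran from -0.75 to -0.33, the latter without WT-SD replicate 1. It was called at -0.75 without WT-SD replicate 3 (FDR = 0.0193) and at -0.72 without KO-SD replicate 3 (FDR = 0.0179), and without a filter on genes (FDR = 0.0498). Pcolce2 made up 0.707% of the RPKM of the 2 enhancers in WT-SD, 3.92% in WT-TGF, 0.524% in KO-SD and 2.45% in KO-TGF.

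The procollagen N-proteinases fell with TGF-β. Adamts2, the main enzyme for type I and III procollagen (gene ID 216725, chromosome 11, 50602085 to 50807573, plus strand), had 28.5, 27.7 and 31.3 CPM in WT-SD and 16.1, 16.2 and 16.7 in WT-TGF. KO-SD libraries had 30.8, 32.1 and 32.6 CPM, and in KO-TGF 13.8, 12.1 and 14.2. The SD groups overlapped, and KO-TGF lay below WT-TGF. It was 1.78-fold lower with TGF-β in WT (log2 fold change -0.83, SE 0.0614, edgeR FDR = 2.45e-13) and 2.38-fold lower in KO (-1.25, SE 0.0654, FDR = 4.28e-17), and the interaction of -0.42 was called (SE 0.0916, FDR = 7.85e-04). With TGF-β it was 1.22-fold lower in KO than in WT (-0.29, SE 0.0736, FDR = 0.00127). In SD the call was at the threshold, with a log2 fold change of 0.13 (SE 0.0546, FDR = 0.0498). It was lost in 13 of 18 alternatives, among them library sizes alone (0.02) and DESeq2 (0.08, adjusted p = 0.349), and the values without 1 library ran from 0.09 to 0.18.

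Adamts14 (gene ID 237360, chromosome 10, 61197112 to 61273419, minus strand) codes for a related N-proteinase. It had 11.7, 10.8 and 10.7 CPM in WT-SD and 6.87, 6.05 and 6.49 in WT-TGF. In KO-SD it had 17.4, 20.7 and 20.5 CPM, and in KO-TGF 11.4, 13.3 and 10.5. KO lay above WT in each treatment, and the KO-TGF libraries overlapped those of WT-SD. TGF-β lowered Adamts14 in WT (log2 fold change -0.77, SE 0.101, edgeR FDR = 6.11e-08) and in KO (-0.74, SE 0.0839, FDR = 3.67e-09), with an interaction of 0.04 (95% interval -0.22 to 0.30, FDR = 0.886), whose sign turned when some single libraries were left out. In KO it was 1.77-fold higher in SD (0.82, SE 0.0814, FDR = 4.20e-10) and 1.81-fold higher with TGF-β (0.86, SE 0.104, FDR = 2.52e-08). Adamts14 made up 40.5% ± 2.27 of the summed RPKM of Adamts2 and Adamts14 in WT-SD, 41.5% ± 1.72 in WT-TGF, 52.4% ± 1.78 in KO-SD and 61.0% ± 4.72 in KO-TGF (SD, n = 3), and the shares of KO and WT libraries did not overlap. The other known procollagen proteinases were under the RPKM filter and not tested: Adamts3 had at most 83 counts in a library, Mep1a at most 1 and Mep1b 0. With the CPM filter or no filter, Adamts3 was tested. It was then called lower with TGF-β in each genotype and lower in KO in each treatment.

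Among the proprotein convertases, Furin, the ubiquitous convertase of the trans-Golgi network (gene ID 18550, chromosome 7, 80389194 to 80405441, minus strand), followed the treatment. It had 119, 115 and 113 CPM in WT-SD and 241, 238 and 243 in WT-TGF. KO-SD libraries had 113, 117 and 119 CPM, and in KO-TGF 243, 248 and 255. Libraries of the 2 genotypes overlapped in each treatment, and those of the 2 treatments were far apart. TGF-β raised Furin 2.08-fold in WT (log2 fold change 1.06, SE 0.0284, edgeR FDR = 1.91e-24) and 2.13-fold in KO (1.09, SE 0.0288, FDR = 9.09e-25), with an interaction of 0.04 (95% interval -0.04 to 0.11, FDR = 0.578). The difference between genotypes was 0.01 in SD (95% interval -0.05 to 0.07, FDR = 0.784) and 0.05 with TGF-β (95% interval -0.01 to 0.10, FDR = 0.152). With library sizes alone both were -0.09 and called lower in KO (FDR = 0.00910 and 0.00654).

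Pcsk5, which codes for PC5/6, a convertase that acts at the cell surface and in the matrix (gene ID 18552, chromosome 19, 17432314 to 17837712, minus strand), was low in KO and rose with TGF-β. It had 43.1, 45.4 and 42.5 CPM in WT-SD and 155, 162 and 148 in WT-TGF. In KO-SD it had 6.22, 5.57 and 6.33 CPM, and in KO-TGF 32.9, 30.9 and 29.1. No groups overlapped, and every KO library, with TGF-β included, was below every WT library. In KO it was 7.21-fold lower in SD (log2 fold change -2.85, SE 0.0689, edgeR FDR = 3.96e-25) and 5.01-fold lower with TGF-β (-2.32, SE 0.0449, FDR = 1.42e-27). A decrease as large was called in 56 genes in SD, 0.488% of those tested, and in 124 with TGF-β, 1.08%, Pcsk5 included.

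TGF-β raised Pcsk5 3.55-fold in WT (log2 fold change 1.83, SE 0.0411, edgeR FDR = 1.98e-26) and 5.11-fold in KO (2.35, SE 0.0752, FDR = 1.41e-22). The relative increase was larger in KO, with an interaction of 0.53 (SE 0.0915, FDR = 4.25e-05), from a level that was lower.

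Pcsk6, which codes for PACE4, a convertase held at the matrix by heparan sulfate (gene ID 18553, chromosome 7, 65862136 to 66050386, plus strand), was low in KO too but fell with TGF-β. It had 40.7, 44.2 and 46.3 CPM in WT-SD and 34.3, 34.4 and 36.8 in WT-TGF. KO-SD libraries had 11.5, 10.9 and 9.78 CPM, and in KO-TGF 8.68, 7.83 and 8.04. The 4 groups did not overlap. In KO it was 4.08-fold lower in SD (log2 fold change -2.03, SE 0.0645, edgeR FDR = 4.49e-22) and 4.30-fold lower with TGF-β (-2.10, SE 0.0736, FDR = 5.41e-21), and 105 and 157 genes were called with a decrease as large, 0.915% and 1.37% of those tested, Pcsk6 included. TGF-β lowered it by a log2 fold change of -0.32 in WT (SE 0.0522, FDR = 3.37e-06) and -0.39 in KO (SE 0.0917, FDR = 3.50e-04), with an interaction of -0.08 (95% interval -0.28 to 0.13, FDR = 0.665).

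The summed levels of podocyte, macrophage and tubular markers were lower in KO at the same treatment, as Pcsk5 and Pcsk6 were, while that of fibroblast markers was higher. The 6 podocyte markers summed to between 452 and 476 CPM in the WT libraries and between 208 and 228 in the KO libraries, with the defining marker Nphs1 at or under 3 counts throughout. Macrophage markers, 6 in all and none of them at or under 3 counts in every library, summed to between 14.7 and 25.1 CPM in WT and between 0.810 and 2.23 in KO, with Adgre1 and C1qa at 0 in KO. The mesangial and smooth muscle sum was 2596 to 2733 CPM in WT-SD, 5942 to 6078 in WT-TGF, 5146 to 5329 in KO-SD and 11519 to 11610 in KO-TGF, in the same order of groups as Bmp1. This sum is carried by Acta2 and Tagln, and other markers of the list went another way: Des had group means of 7.53, 5.64, 0.530 and 0.250 CPM, and Itga8 2.84, 1.61, 3.05 and 0.646 CPM, in the same order. Tubular markers summed to between 17.7 and 76.8 CPM in WT and between 4.01 and 22.0 in KO, though Aqp1 was higher in KO-SD (6.82 CPM) than in WT-SD (4.03). Fibroblast markers, nearly all from Col1a1, summed to between 4064 and 8201 in WT and between 9378 and 16317 in KO. Pdgfra of that list was instead lower in KO, with 3.48 CPM in WT-SD, 1.98 in KO-SD, 0.648 in WT-TGF and 0.215 in KO-TGF. Endothelial markers summed to at most 1.02 in any library. The part of these differences in the results was not tested, and in bulk RNA fewer cells of a type and less RNA per cell cannot be told apart.

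Per length, the 3 convertases changed in composition. Furin made up 52.4% ± 1.82 of their summed RPKM in WT-SD, 60.0% ± 0.663 in WT-TGF, 83.6% ± 1.23 in KO-SD and 87.9% ± 0.837 in KO-TGF (SD, n = 3). Pcsk6 took 35.0%, 15.5%, 13.6% and 5.12% in the same order, and Pcsk5 12.6%, 24.5%, 2.75% and 6.96%. WT and KO libraries were fully apart in the share of Furin. The summed level was 24.1 ± 0.250 RPKM in WT-SD, 43.7 ± 0.0854 in WT-TGF, 15.2 ± 0.173 in KO-SD and 30.8 ± 0.523 in KO-TGF.

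**Figure D5:**
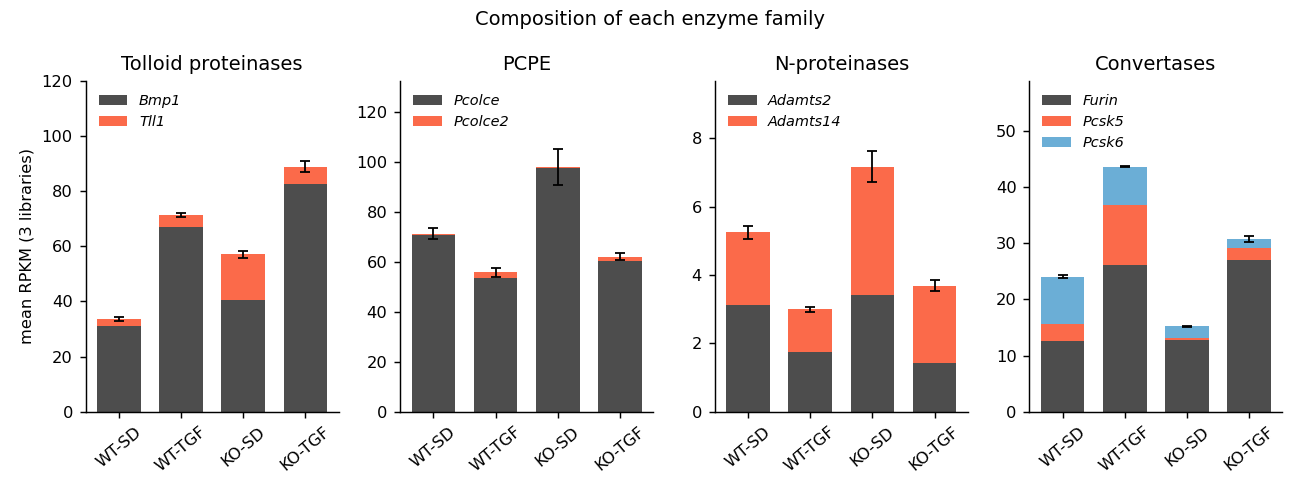
Mean RPKM of the members of 4 enzyme families, stacked, in each group, with bars for the SD of the sum over 3 libraries and an axis from 0 of its own in each panel. Tll1 is a visible part of the tolloid bar in KO-SD (29.3%), and Furin makes up most of the convertase bars in KO (83.6% in SD and 87.9% with TGF-β).

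The stretches before the transcription starts of Tll1, Furin and Pcsk6 are shown because these genes stand for the 3 patterns above: a response that turned with genotype, a response not called different between genotypes, and a level that was low in KO. TGF-β signals through SMAD proteins, which bind the short motif CAGAC. This motif and the AP-1 motif TGANTCA were searched for on both strands, with overlapping matches allowed. The search covered the 250 bases before each start in RefSeq's table for GRCm38.p6, the assembly of mm10. Of the 10 genes, 9 had such a window and Furin had one for each of 2 starts. Each sequence is written 5′ to 3′ on the strand of the gene, with CAGAC or its reverse complement GTCTG in capitals. The windows are chr8:64206009-64206258 on the minus strand for Tll1, chr7:80405437-80405686 on the minus strand for the upstream start of Furin and chr7:65861886-65862135 on the plus strand for Pcsk6.
Tll1: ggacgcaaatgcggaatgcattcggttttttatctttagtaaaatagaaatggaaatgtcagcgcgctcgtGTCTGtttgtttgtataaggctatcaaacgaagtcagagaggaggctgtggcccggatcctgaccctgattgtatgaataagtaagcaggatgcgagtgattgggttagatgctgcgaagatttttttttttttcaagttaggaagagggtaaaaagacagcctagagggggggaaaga
Furin: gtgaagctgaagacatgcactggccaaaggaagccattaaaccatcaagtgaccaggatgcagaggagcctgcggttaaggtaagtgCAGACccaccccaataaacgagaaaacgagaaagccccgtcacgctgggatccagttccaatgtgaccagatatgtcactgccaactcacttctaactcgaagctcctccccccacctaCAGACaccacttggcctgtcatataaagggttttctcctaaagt
Pcsk6: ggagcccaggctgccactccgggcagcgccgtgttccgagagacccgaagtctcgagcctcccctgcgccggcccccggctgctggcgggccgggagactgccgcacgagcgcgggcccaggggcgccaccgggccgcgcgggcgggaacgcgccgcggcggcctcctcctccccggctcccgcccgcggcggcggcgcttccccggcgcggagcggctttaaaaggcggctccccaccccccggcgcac
Tll1 had 1 match, beginning 179 bases before the start, Furin had 2, at 163 and 44 bases, and Pcsk6 had none. At its other start Furin had 1 match, at 190 bases, and Adamts14 had 1, at 181 bases. In all, 3 of the 9 genes had CAGAC, which stands in 42.2% of the 32817 windows of this table, and 0 had TGANTCA, which stands in 6.75%. A match is a run of letters and does not show that a protein binds there.

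The genes whose levels followed each enzyme most closely were found by Pearson's r of log2 CPM over the 12 libraries. These values describe 4 groups of 3 libraries that share treatment, genotype and normalization, and no p is given. For Bmp1 they were Anxa2, Zfp469 and Fbn1, each with r = 0.998, and Fbn1, for the microfibril protein fibrillin-1, had 956 CPM in WT-SD, 2743 in WT-TGF, 1387 in KO-SD and 3846 in KO-TGF. For Tll1 they were Sertad4 (r = 0.986), Nsd2 (0.979) and Ctla2a (0.978), and Ctla2a, an inhibitor of cysteine proteinases, had 71.9, 83.9, 175 and 116 CPM in the same order. For Pcolce they were Espl1 (r = 0.992), Cenpf (0.991) and Knl1 (0.991), genes of chromosome segregation, of which Knl1 had 4.80, 1.44, 22.0 and 2.40 CPM. These span a wider range than Pcolce.

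Pcolce2 was followed by Pde2a, Slc7a7 and Capns2 (r = 0.980 to 0.982) and Adamts2 by Vnn1, Aldh1a1 and Cbx6 (0.992 to 0.993). Adamts14 was followed by Tinagl1, C530008M17Rik and Eif4b (0.980 to 0.982). Furin was nearest to Irf2bpl (r = 0.999), Slc20a1 and Rnf19b (0.998 each). Pcsk5 was nearest to Gng2 and Atp2b4 (0.994 each) and Srd5a1 (0.990). For Pcsk6 the nearest were Pdpn (r = 0.997), for podoplanin, and Podxl and Tfpi (0.996 each), for podocalyxin and tissue factor pathway inhibitor. Pdpn had 276 CPM in WT-SD, 219.6 in WT-TGF, 59.3 in KO-SD and 46.6 in KO-TGF. Podxl is among the podocyte markers above.

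The pathways around the enzymes were described by lists of known genes, to be read beside the medians of all genes tested, 0.03 and -0.01 with TGF-β in WT and KO, 0.05 and 0.01 between genotypes in SD and with TGF-β and -0.05 for the interaction. Of all genes tested, 39.3% were called higher and 33.4% lower with TGF-β in WT, and 36.4% and 37.8% in KO. Between genotypes 35.6% were higher and 21.5% lower in SD, and 28.9% and 26.3% with TGF-β, while the interaction was higher in 7.69% and lower in 18.7%, and these shares are the background of the counts of every list. Of 28 known substrates of the tolloid proteinases, 22 were tested. With TGF-β, 16 rose and 6 fell in WT (median log2 fold change 0.65) and 14 rose and 7 fell in KO (0.56). Col5a3, a fibrillar procollagen chain, went up from 62.4 ± 2.34 CPM in WT-SD to 571 ± 25.4 in WT-TGF (log2 fold change 3.19, SE 0.0408, edgeR FDR = 1.25e-32), and Ogn, for the small proteoglycan osteoglycin, fell from 48.5 ± 2.14 to 13.5 ± 1.48 CPM (-1.85, SE 0.0643, FDR = 1.38e-21). In WT, Col27a1 (2.31) rose as well, and in KO, Col5a1 (1.82) and Col5a3 (3.51) rose and Ogn (-2.62) fell. Between genotypes, 16 substrates were higher and 5 lower in KO in SD (median 0.40), and 13 higher and 5 lower with TGF-β (0.46). Col3a1, the chain of type III procollagen, had 605 ± 38.9 CPM in WT-SD and 5445 ± 122 in KO-SD (3.17, SE 0.0316, edgeR FDR = 1.39e-34), and Dcn, for decorin, had 9.66 ± 0.668 and 59.5 ± 3.76 (2.62, SE 0.0623, FDR = 2.70e-25). Col11a1 (1.75) and Ogn (2.09) were higher in KO too in SD, and with TGF-β Col3a1 (2.69), Dcn (2.40) and Ogn (1.31) were higher, and Col1a1 was at 8000 ± 196 CPM in WT and 15969 ± 318 in KO. The interaction was called higher in 4 and lower in 11 of the 22 (median -0.19), with Col11a1 (-0.78), Col27a1 (-0.73) and Ogn (-0.77) lower.

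Proteins that bind or assist the tolloid enzymes were tested for 5 of 6 genes, of which 3 rose and 2 fell with TGF-β in each genotype and 3 were higher and 2 lower in KO in each treatment. Their median log2 fold change was 0.55 with TGF-β in WT and 0.13 in KO, and 0.26 between genotypes in SD and 0.23 with TGF-β. Fn1, for fibronectin, had 13858 ± 222 CPM in WT-SD, 24511 ± 165 in WT-TGF, 23321 ± 360.3 in KO-SD and 33246 ± 212 in KO-TGF. Postn, for periostin, was higher in KO in SD (log2 fold change 1.59) and with TGF-β (1.18). Efemp2, for fibulin-4, rose with TGF-β in WT (0.68) and in KO (0.66). Sfrp2, for a secreted Wnt antagonist, fell with TGF-β in WT (-1.35) and in SD was lower in KO (-3.76), and Twsg1, for a BMP-binding protein, fell with TGF-β in KO (-0.70). The interaction was lower in Fn1 (-0.31), Postn (-0.42) and Twsg1 (-0.24).

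Of 6 other proprotein convertases, 3 were tested and the rest (Pcsk1, Pcsk2 and Pcsk4) had at most 23 counts in a library. Mbtps1, for the Golgi convertase S1P, had 231 ± 3.10 CPM in WT-SD and 270.4 ± 4.67 in KO-SD (log2 fold change 0.23, SE 0.0264, edgeR FDR = 1.12e-08). Both of the tested furin inhibitors fell with TGF-β in each genotype: Serpinb8, for a serpin, from 20.0 ± 1.43 CPM to 6.75 ± 0.572 in WT (-1.57, SE 0.0792, edgeR FDR = 2.16e-17) and from 23.8 ± 0.697 to 5.11 ± 0.171 in KO (-2.22, SE 0.0851, FDR = 1.50e-20), and Gbp2, for a guanylate-binding protein, by -1.43 in WT and -1.46 in KO. The interaction was lower for Serpinb8 (-0.65, FDR = 1.64e-04). Gbp2 was also lower in KO than in WT, by -0.80 in SD and -0.83 with TGF-β, and Serpinb8 was higher in KO in SD (0.25) and lower with TGF-β (-0.40).

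Substrates of the convertases went both ways. Of 49 genes, 40 were tested, with 18 higher and 19 lower with TGF-β in WT (median -0.01) and 20 higher and 19 lower in KO (0.02). Tgfb1, for the TGF-β1 precursor, had 58.5 ± 0.140 CPM in WT-SD and 285 ± 3.71 in WT-TGF (log2 fold change 2.28, SE 0.0296, edgeR FDR = 1.74e-32). Itga5, for an integrin chain, rose in WT (2.82) and in KO (3.09), and Pdgfb, for a platelet-derived growth factor chain, in KO (3.36). The lymphatic growth factor gene Vegfd fell in WT (-3.16) and in KO (-3.86), and the metalloproteinase gene Adamts1 fell in KO (-2.33). In SD, 25 were higher and 10 lower in KO (median 0.23), and with TGF-β 17 were higher and 14 lower (0.06). Adam19, for a membrane metalloproteinase, was higher in KO in SD (1.17) and with TGF-β (1.10), Vegfd was higher in SD (1.42), and the growth factor genes Pdgfb (-2.02) and Gdf15 (-2.01) were lower in SD. With TGF-β, Gdf15 (-2.53), Bmp4 (-1.55) and Adamts1 (-1.07) were lower in KO. The interaction was called higher in 5 and lower in 19 of the 40 (median -0.13), with Pdgfb (1.12) and Edn1, for endothelin-1 (0.89), higher and Bmp4 (-0.95) lower.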

How the data were processed

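RNA-seq of 12 MMC libraries was analysed. The authors sequenced 51 bp single-end reads, mapped them to mm10 with TopHat and assigned them to RefSeq genes with HTSeq by strand, at a minimum mapping quality of 10. Tools and build are also named in the submitters' processing notes. The deposited values are raw counts. Reads on no gene (10.3% to 15.4% of a library), with several alignments (11.2% to 11.7%) or on overlapping genes (0.225% to 0.274%) were left out of library sizes and tests. The share on no gene differed by group: 15.2% to 15.4% in WT-SD, 12.2% to 12.5% in WT-TGF, 12.7% to 13.4% in KO-SD and 10.3% to 10.9% in KO-TGF. TMM factors differed by group too, with 1.11 to 1.12 in WT-SD and 0.887 to 0.893 in KO-TGF. The part of this in the results was not tested.

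Exon lengths came from GENCODE vM21, by symbol for 24407 genes, by NCBI gene ID for 296 and by an older symbol for 16, with none for 511. The counts were made on RefSeq genes, so the order of levels between genes and the shares of a family rest on these lengths. Other lengths were not tried. After TMM scaling, edgeR 4.0.16 under R 4.3.3 fitted the 4 groups together, and quasi-likelihood p-values were adjusted by Benjamini-Hochberg over the 11478 genes tested, of 18565 with a count. Intervals are 1.96 SE to each side. Groups came from the labels. With 3 against 3 libraries, an exact permutation test could not go below p = 0.1 and was not used. Counts of libraries in 1 group differed beyond sampling noise, so each library counted once. The alternatives were library sizes alone, DESeq2 1.42.0, a CPM filter (>1 in 3 or more libraries), all genes with a count, the compared groups alone, a replicate block and leaving out each library. The code was tested on simulated data.

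The genes and the gene lists were chosen with earlier results of these data known. From each list, the genes named in a comparison were those at FDR <5%, with at least 5 CPM on average in the higher group, that changed most (up to 4 a list), and some genes that the rule names are not reported here. Genes most like an enzyme were the 3 with the highest r (log2 CPM, prior count 2). Protein sequences were not used here, and Bmp1 had no promoter window.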

Additional observations from a re-analysis of the deposited data

Results flagged for a closer look

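The response to TGF-β differed between WT and KO by the interaction test of edgeR in 4 of the 9 genes tested, 1 higher and 3 lower, which is why they are listed here. Over all genes tested the interaction was called in 26.4%, 7.69% higher and 18.7% lower. Tll1 rose in WT and fell in KO, with a difference of -2.30 on the log2 scale (FDR = 6.18e-21). Pcolce fell in both, and by more in KO (-0.29, FDR = 7.70e-05), as did Adamts2 (-0.42, FDR = 7.85e-04). Pcsk5 rose in both, and by more in KO (0.53, FDR = 4.25e-05). All 4 calls and signs were the same in each of the alternatives run for the interaction.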

How the results depend on the processing

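Calls and signs of 37 of the 45 gene-by-comparison results were the same in every alternative run. Of 800 refitted log2 fold changes, 767 kept direction and side of the threshold, 14 lost the call, 4 gained it and 15 turned sign, and all 178 counts of called enzymes stayed within 1.5 times. KO against WT in SD turned sign for Pcolce2 with library sizes alone (-0.10), DESeq2 (-0.04) and single libraries left out (-0.19 to 0.23), and for Furin with library sizes alone (-0.09), DESeq2 (-0.03), only the groups compared (-0.02) and single libraries left out (-0.01 to 0.03). With TGF-β, Furin turned with library sizes alone (-0.09). The interaction of Adamts14 turned when single libraries were left out (-0.06 to 0.11). The causes were not tested.

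Of 1068 counts over the lists, 1046 stayed within 1.5 times. Most of the others were counts of 0 to 2: other procollagen proteinases called lower went from 0 to 1 in the 4 comparisons of 2 groups with the CPM filter or no filter, since Adamts3 was then tested, furin inhibitors lower in KO-SD from 1 to 2 likewise, other convertases changed by 1, and tolloid partners lower with TGF-β in KO from 2 to 1 with only the groups compared. Tolloid substrates with a higher interaction went from 4 to 2 without WT-SD replicate 3 or KO-TGF replicate 2.

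Replicate numbers showed little sign of pairing the libraries: deviations of same-numbered libraries correlated by -0.03 to 0.15, with 1 of 18 pairs over 0.1. The labels do not say whether same-numbered libraries were paired, and these correlations cannot exclude it. With the replicate block, 5 enzymes were higher and 4 lower with TGF-β in WT, 4 and 5 in KO, 5 and 2 for KO against WT in SD, 4 and 4 with TGF-β, and 1 and 3 for the interaction, the counts given without it. Depth limits Pcolce2 in SD, at 37 to 68 counts a library, and Tll2.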
